A study of Mus musculus with 30 samples.

Results

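Collagens, laminins and integrins were read in the hearts of mice of different age and time of day and in the cultured cell line HL-1. A gene counted as a member if its symbol was Col, a number, a and a number (a collagen chain), Lam, a, b or c and a digit (a laminin chain), or Itga or Itgb with a chain name (an integrin chain), and proteins that only bind integrins or resemble them were left out. The heart table lists 78 members among 20764 genes, with 41 collagens, 11 laminins and 26 integrins. The HL-1 table lists 82 members among 54532 genes, with 44 collagens, 11 laminins and 27 integrins. After a filter on low counts, 69 of the 78 members were tested in hearts and 50 of the 82 in HL-1 cells.

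Collagens are chains wound around each other as a helix, and they form the scaffold of the extracellular matrix. Fibrillar collagens of types I, III and V give the heart its tensile strength, while type IV collagen and the laminins, each built from an alpha, a beta and a gamma chain, form the basement membrane that wraps every cardiomyocyte and capillary. Integrins are receptors of an alpha and a beta chain that hold cells to this matrix and signal from it. In heart, Itgb1 pairs with several alpha chains, of which Itga7 binds laminin, Itga5 fibronectin, and Itga1 and Itga11 collagen.

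The hearts came from female C57BL6 mice, of mixed substrain background by the study's methods, and no gene was altered. Young mice were 2 months old and old mice 12 months. Old mice drank untreated water (H2O, labelled MQ) or water with 3 g/l nicotinamide riboside (NR), a precursor of NAD+, from 2 months of age, and young mice drank water without NR. Each of these sets was taken at Zeitgeber time 10 (ZT10, in the light) and 22 (ZT22, in the dark), which gives 6 groups of 3 mice, with 1 library per heart. By the study's methods NR was given to whole cages, and the labels do not name the cage of a mouse. NR and cage thus cannot be told apart, and p-values for NR measure the spread between mice. HL-1, a line grown from an atrial tumour of a female C57BL6/J mouse, was left untreated or was given FK866, an inhibitor of the NAD+ salvage enzyme Nampt, FK866 and NR, or FK866, NR and Ex527, an inhibitor of Sirt1. Those 4 groups have 3 libraries each, all from 1 line, so that their p-values measure the spread between cultures of that line.

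Heart libraries held between 3922137 and 7562215 counts and HL-1 libraries between 21337922 and 35000109. In hearts the cardiomyocyte gene Myh6 had between 7194 and 13880.4 normalized counts, which are counts scaled to the average effective library size. In the HL-1 libraries, which the labels call cardiomyocytes, it had between 0 and 7.26 and the cardiac actin Actc1 had 0 in all 12, while the fibroblast genes Dcn and Pdgfra had 2545 to 4786 and 317 to 858. Of the list of 7 fibroblast markers, Gsn averaged 6768 raw counts per HL-1 library and Dpt 7.25. Lum, Tcf21 and Pi16 were too low to test there, and 1 gene of the list had no count in any of the 12. The atrial genes Myl7 and Nppa stayed between 3.63 and 23.5 and between 0 and 2.24 there. Replicate 1 of FK866 and NR stands apart in genes of other cells, with 250.5 normalized counts of the myeloid gene Lyz2 against 0 to 2.33 in the other 11 libraries and 93.2 of the calcium channel gene Ryr2 against 0 to 3.69. It also held the highest value of 18 of the 31 members that had a count but were too low to test in HL-1, and results that rest on it are given without it. Across these bulk libraries, fewer cells of a type and less RNA per cell cannot be told apart.

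Members made up a small part of the counts of a heart. Collagens took between 0.272% and 0.412% of the counts of a heart, laminins between 0.196% and 0.258%, and integrins between 0.182% and 0.201%. In HL-1 cells the share was 0.647% to 0.897% for collagens, 0.281% to 0.345% for integrins and 0.0676% to 0.0947% for laminins. Heart counts leave out duplicate and mitochondrial reads, and no such step is described for HL-1. Shares and levels of hearts and of HL-1 cells were thus not measured alike.

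Compared as RPKM, counts scaled to gene length and library size, the level of Itgb1 was the highest of all members in hearts at 121 (from 96.4 to 136) over the 18 hearts. Lamb2, the beta chain of the laminins of mature muscle, followed at 91.4 (from 79.8 to 104), then the basement membrane chains Col4a1 at 86.1 (from 64.9 to 120.5) and Col4a2 at 81.1 (from 64.0 to 112). The ranges of Lamb2, Col4a1 and Col4a2 overlap. A second tier held the laminin chain Lamc1 at 48.4 (from 41.3 to 60.0), Itgb5 at 48.3 (from 46.0 to 52.5), Col6a1 of the beaded type VI filaments at 43.6 (from 32.99 to 55.7) and Itga7 at 38.8 (from 34.8 to 45.6), whose ranges overlap except those of Itgb5 and Itga7. The fibrillar chains Col3a1 and Col1a1 ranked 11th and 12th, at 31.9 (from 19.2 to 43.0) and 28.4 (from 16.8 to 38.8). The leading basement membrane chains thus stood above the fibrillar ones in level per length in these hearts.

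**Figure D1:**
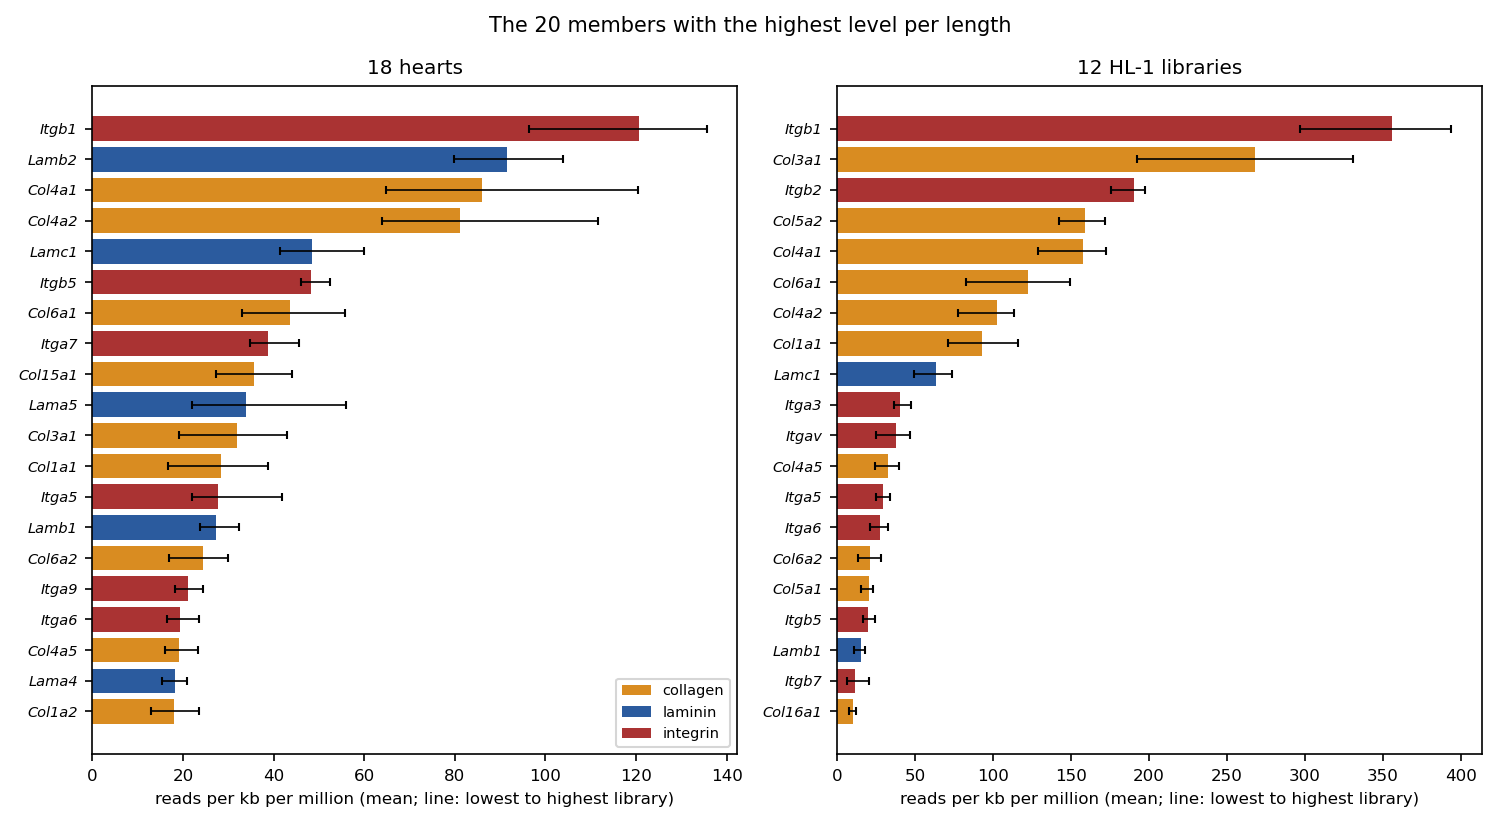
Level per length (RPKM, horizontal axis) of the 20 highest members in the 18 hearts (left) and the 12 HL-1 libraries (right). Bars are means and lines run from the lowest to the highest library, and Itgb1 leads in both, at 121 and 356. Hearts and HL-1 reads were processed differently, so levels compare within a panel.

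HL-1 cells had another order. Itgb1 led at 356 (from 297 to 394), followed by Col3a1 at 268 (from 192 to 331) and by Itgb2, the beta chain of leukocyte integrins, at 190.4 (from 176 to 197). Of the alpha chains that pair with Itgb2, Itgal averaged 15.7 raw counts per library, Itgax 1 and Itgam 0.417. Itga7, among the 10 highest members in hearts, averaged 44 raw counts in HL-1. Lama2, the alpha chain of the muscle basement membrane, had 58 raw counts over all 12 libraries, and its highest value, 24.2 normalized counts, was in replicate 1 of FK866 and NR. Col6a3, which joins Col6a1 and Col6a2 in the usual type VI trimer, had 3 raw counts in all, while Col6a1 stood at 123 (from 82.5 to 149.5) RPKM.

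Chains that share a trimer kept different ratios in the 2 sources. Per length, Col1a1 stood 1.59 times above Col1a2 in hearts and 53.6 times above it in HL-1 cells. These ratios rest on the deposited gene lengths, 6563 bases for Col1a1 and 12426 for Col1a2. In raw counts Col1a1 was below Col1a2 in every heart except the young ones at ZT22. Col4a1 stood 1.06 times above Col4a2 in hearts and 1.53 times in HL-1 cells. Across the 18 hearts, which share the age, time and NR groups, Pearson's r of log2 levels was 0.98 for Col4a1 with Col4a2, 0.95 for Col1a1 with Col1a2 and 0.94 for Col6a1 with Col6a2. It was 0.44 for Col6a1 with Col6a3, 0.53 for Col4a3 with Col4a4 and 0.06 for Col4a5 with Col4a6. Among 11074 genes, those most like Col4a1 by this measure were Col4a2, Myo18b, the endothelial cadherin gene Cdh5 (r = 0.88), F11r and Srsf1. Those most like Col1a1 were Col1a2, Col6a1 (r = 0.95), Col6a2, the basement membrane linker Nid1 (r = 0.90) and Srsf3.

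The 6 type IV collagen genes lie head to head in 3 pairs. In GENCODE M21 (GRCm38) the starts of Col4a4 and Col4a3 on chromosome 1 are 71 bases apart, and those of Col4a6 and Col4a5 on chromosome X are 1308 bases apart. Col4a1 runs to the left from position 11312826 of chromosome 8 and Col4a2 to the right from 11312805, so that their first exons overlap by 22 bases. This shared stretch is shown because the 2 genes moved together in the results that follow, with Col4a1 transcribed from its complement:
Col4a1 and Col4a2, chr8:11312805-11312826, + strand: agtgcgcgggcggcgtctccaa

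Promoters from RefSeq (GRCm38.p6), as windows from 250 bases before to 50 after a gene's start, were found for 59 of the 82 members. The letters CACGTG, the E-box that the clock factors Bmal1 and Clock bind, were searched on both strands and were in 0 of the 59 and in 8.09% of all 27025 genes with a window, which says only that these letters are not in those windows. In the 250 bases before the start, CCAAT was found on either strand in 28.8% of members and 37.5% of all genes, TATAAA in 8.47% and 14.3%, and GGGCGG in 49.2% and 35.4%. None of these strings contains another. The last 120 bases before the start are shown for Col5a3, the member called between the times in all 3 sets of hearts, and for Col1a2, Col3a1 and Col6a1, which moved together in HL-1 cells, with matches to CCAAT or TATAAA in capitals:
Col5a3, chr9:20815068-20815187, - strand: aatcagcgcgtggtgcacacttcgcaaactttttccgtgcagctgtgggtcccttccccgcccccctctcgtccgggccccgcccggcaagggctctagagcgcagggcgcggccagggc
Col1a2, chr6:4505498-4505617, + strand: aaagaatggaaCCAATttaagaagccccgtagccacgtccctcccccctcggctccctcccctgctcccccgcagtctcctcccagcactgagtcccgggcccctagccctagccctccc
Col3a1, chr1:45311418-45311537, + strand: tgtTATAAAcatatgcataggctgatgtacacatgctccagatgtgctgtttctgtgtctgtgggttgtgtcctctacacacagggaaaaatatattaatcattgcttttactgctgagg
Col6a1, chr10:76726045-76726164, - strand: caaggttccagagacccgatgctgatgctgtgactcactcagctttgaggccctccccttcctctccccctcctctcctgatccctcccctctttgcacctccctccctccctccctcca
In these stretches CCAAT stands 109 bases before the start of Col1a2 and TATAAA 117 bases before that of Col3a1, and Col5a3 and Col6a1 hold neither.

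Young hearts were compared between ZT10 and ZT22 to find members that differ with the time of day. At ZT10 the basement membrane chains Col4a1 and Col4a2, the fibril chain Col5a3 and the integrin chains Itga1, Itga5, Itga6 and Itga11 were lower, while the fibril-associated Col14a1, the muscle laminin chain Lama2 and Itga3 and Itga8 were higher. Of the 69 members tested, 18 passed an adjusted p-value of 0.05 and are termed called, 9 in each direction. That is 26.1% of members where 14.4% of all 15443 genes were called, 6.8% higher and 7.57% lower. The median absolute log2 fold change was 0.24 over members and 0.16 over all genes. Groups did not overlap for 25 members, or 36.2%, against 30.6% of all genes. By family, 9 of 34 collagens, 3 of 10 laminins and 6 of 25 integrins were called.

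Col4a1 had 3904, 3676 and 3790.0 normalized counts in the 3 young hearts at ZT10 and 5081, 4702 and 4832 at ZT22, with no overlap (log2 fold change -0.36 ± 0.10, adjusted p = 0.0171). Errors of log2 fold changes, throughout, are standard errors of the fit. Its partner Col4a2 had 3211, 3109 and 3261 at ZT10 and 4172, 3912 and 3929.9 at ZT22 (log2 fold change -0.33 ± 0.08, adjusted p = 0.0106). Both were thus 1.29-fold and 1.25-fold lower at ZT10. The call of Col4a1 was lost without young ZT10 replicate 2 or 3 or ZT22 replicate 1, at log2 fold changes of -0.34, adjusted p = 0.07, -0.36, adjusted p = 0.054 and -0.33, adjusted p = 0.0582. The remaining called type IV chains went the other way, with Col4a6 at 0.94 (adjusted p = 0.00149) and Col4a5 at 0.19 (adjusted p = 0.0417), the latter call being lost without 5 of the 6 young hearts. Col8a1, another network collagen, was higher at ZT10 by 0.41 (adjusted p = 0.00653). Endothelial markers moved beside Col4a1 and Col4a2: all 6 were lower at ZT10, 2 of them called, Kdr at -0.53 (adjusted p = 0.000545) and Cldn5 at -1.36 (adjusted p = 5.69e-08), and their summed normalized counts ran from 7721 to 8162 at ZT10 and from 9142 to 9821 at ZT22. Sums of the atrial markers were uneven in young hearts, from 872 to 4202 (median 1047) at ZT10 and from 714 to 1470.5 at ZT22. Their part in the result was not tested.

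Col5a3, which enters fibrils of type V collagen, had the largest log2 fold change of the 18. It had 269, 258 and 251 normalized counts at ZT10 and 773, 754 and 633 at ZT22, a 2.77-fold difference (log2 fold change -1.47 ± 0.15, adjusted p = 4.51e-07). Its relative Col11a2 had 55.9 ± 6.49 at ZT10 and 113 ± 16.6 at ZT22 (SD, n = 3; log2 fold change -1.02 ± 0.20, adjusted p = 0.00111). The large fibrillar chains Col1a1, Col1a2 and Col3a1 were not called, with log2 fold changes of -0.07 ± 0.09, 0.15 ± 0.08 and 0.19 ± 0.11. Col14a1, which binds to the surface of fibrils, had 420.2, 515 and 489.9 at ZT10 and 256, 274 and 277 at ZT22 (log2 fold change 0.82 ± 0.11, adjusted p = 2.07e-05). Col6a6 was higher at ZT10 too, by 0.69 (adjusted p = 0.00817), a call lost without young ZT10 replicate 2 (0.57, adjusted p = 0.0585) or ZT22 replicate 3 (0.55, adjusted p = 0.0572). Col6a1, Col6a2 and Col6a3 differed by 0.09, -0.06 and -0.15 and were not called.

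Among laminins, Lama2 had 1703, 1821 and 1849 normalized counts at ZT10 and 1380.2, 1454 and 1325 at ZT22 (log2 fold change 0.37 ± 0.07, adjusted p = 0.000828). Lamb3, a chain of epithelial laminins, was also higher at ZT10, at 0.46 (adjusted p = 0.0219), with groups that overlap and a call lost without 4 of the 6 young hearts. Lamb1, Lamb2, Lamc1, Lama4 and Lama5 were not called, at log2 fold changes between -0.19 and 0.20.

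The alpha chains carried all of the integrin calls, 6 of 11, with 0 of 6 beta chains called (0 at an unadjusted p under 0.05) and 0 of 8 leukocyte chains (1 at an unadjusted p under 0.05). Of all genes 14.4% were called, and classes of 6 and 8 chains are too small to tell 0 calls from that share. The leukocyte class used here includes Itga2b, a platelet chain. Itga11, a collagen receptor of fibroblasts, had 40.0, 45.6 and 33.9 normalized counts at ZT10 and 90.0, 100.3 and 115 at ZT22 (log2 fold change -1.35 ± 0.15, adjusted p = 3e-06). Itga8 had 170.1, 131 and 239 at ZT10 and 91.3, 71.3 and 77.3 at ZT22 (log2 fold change 1.17 ± 0.26, adjusted p = 0.00372). The laminin receptor chain Itga3 was higher at ZT10 by 0.46 (adjusted p = 0.00747), which was lost without young ZT22 replicate 3 (0.32, adjusted p = 0.0583). The smaller changes were those of Itga5 at -0.30 (adjusted p = 0.0193), with overlapping groups, Itga6 at -0.25 (adjusted p = 0.0297) and Itga1 at -0.24 (adjusted p = 0.0185). These last 3 calls were lost without 3, 4 and 3 of the 6 young hearts. Itgb1, the common partner, had 2941 ± 97.1 at ZT10 and 2894 ± 50 at ZT22 and differed by 0.02 ± 0.10 on the log2 scale.

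In the list of 28 tested genes for collagen processing, 13 were called, 6 higher and 7 lower at ZT10, or 46.4% beside the 14.4% of all genes. The lower ones include the collagen chaperone Serpinh1 at -0.37 (adjusted p = 0.0148), the prolyl hydroxylase subunit P4ha1 at -0.82 (adjusted p = 1.25e-07) and the crosslinking enzymes Lox and Loxl1 at -1.55 (adjusted p = 0.000271) and -0.45 (adjusted p = 0.000997). The higher ones include the lysyl hydroxylase Plod2 at 0.47 (adjusted p = 5.3e-05) and Fkbp10 at 0.78 (adjusted p = 4.55e-06). In a list of 30 other matrix ligands, which also holds cell surface proteins such as Dag1, Sdc4 and Cd44, 7 were called, or 23.3%. Of 28 genes in a list for integrin adhesion 4 were called, or 14.3%, which is at the level of all genes.

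**Figure D2:**
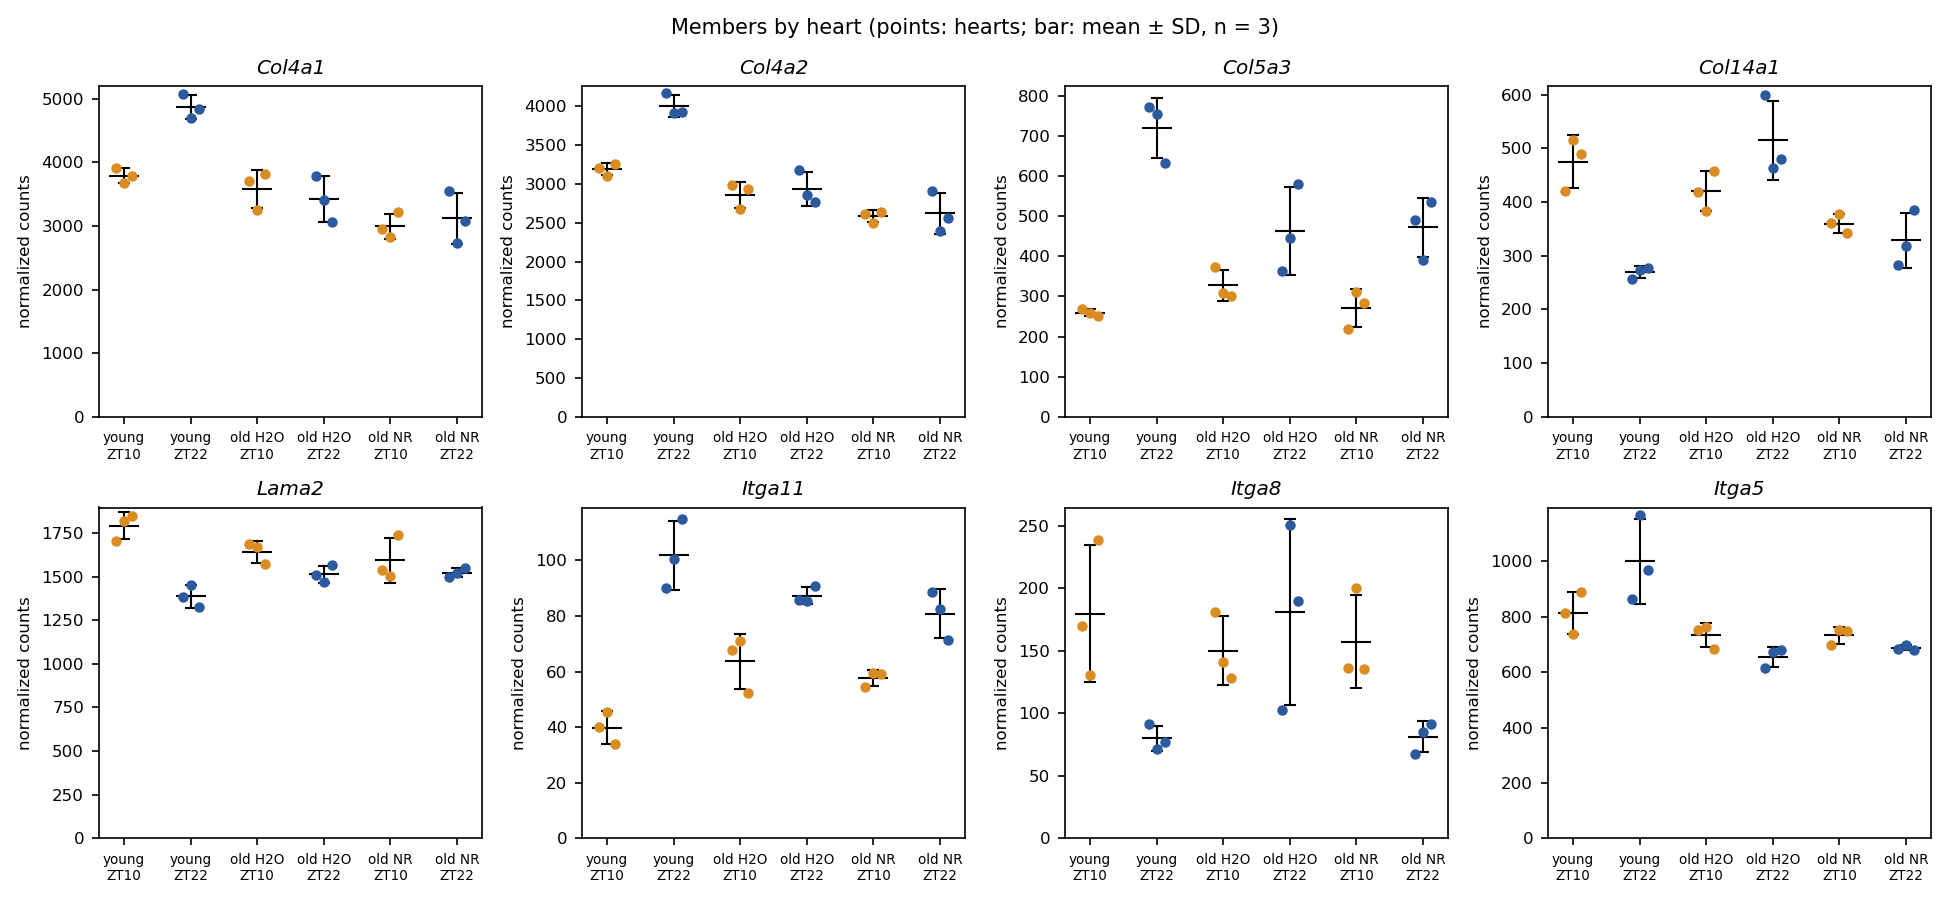
Normalized counts (vertical axes, from 0) of 8 members in the 18 hearts, by age, treatment and time, with each heart as a point and bars for the mean ± SD (n = 3). Young hearts at ZT22 stand above the other groups in Col4a1 and Col4a2 and below the young hearts at ZT10 in Col14a1 and Lama2.

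Old hearts were compared between the same times to see which of these differences occur at 12 months. In old H2O hearts 2 members were called, 2.9% of the 69 and both lower at ZT10, against 4.2% of all genes (1.56% higher and 2.64% lower). Itgb6 had 226, 262 and 242 normalized counts at ZT10 and 381, 357 and 352 at ZT22 (log2 fold change -0.57 ± 0.13, adjusted p = 0.0166), while in young hearts it had 255, 289 and 303 and 437, 289 and 304 and was not called. Col5a3 had 372, 309.9 and 301 and 364, 447 and 581, with overlapping groups (log2 fold change -0.53 ± 0.15, adjusted p = 0.0382). Without old H2O ZT10 replicate 3 both calls were lost and 0 members were called, the lowest of a range from 0 to 3 over the 6 hearts. The call of Itgb6 was also lost without ZT10 replicate 1 (-0.53, adjusted p = 0.0779) and that of Col5a3 without ZT10 replicate 2, ZT22 replicate 2 or ZT22 replicate 3, with log2 fold changes from -0.67 to -0.33 over its alternatives. At ZT10 4 of 5 atrial markers were higher in these hearts with 1 called. Their summed normalized counts ran from 2195 to 2856 at ZT10 and from 693 to 2995 (median 763) at ZT22. The part of these markers in the values of old H2O hearts, here and in the comparisons with young hearts, was not tested. Groups did not overlap for 12 members, 17.4%, against 22.2% of all genes.

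In old NR hearts 5 members were called, 7.25% of the 69, with 1 higher and 4 lower at ZT10, against 5.37% of all genes (2.36% higher and 3.01% lower). Col5a3 was again lower at ZT10, with 219, 311 and 285 normalized counts against 490.1, 392 and 536 (log2 fold change -0.79 ± 0.14, adjusted p = 0.00176). Lama5, an alpha chain of vascular basement membranes, had 1416, 1853 and 1626 at ZT10 and 3601, 2353 and 2310.4 at ZT22, where 1 heart stood far above the others (log2 fold change -0.75 ± 0.15, adjusted p = 0.00383). Col5a2 was lower at -0.34 (adjusted p = 0.0171) and Itgb6 at -0.50 (adjusted p = 0.0253), the latter with overlapping groups. Itga8 had 136, 199.9 and 136 at ZT10 and 67.1, 85.3 and 91.3 at ZT22 (log2 fold change 0.94 ± 0.25, adjusted p = 0.0282), a difference in the direction of the young hearts. The calls of Col5a2, Itgb6 and Itga8 were each lost without 4 of the 6 hearts, while those of Col5a3 and Lama5 held without each of the 6. The number of members called was 2 without old NR ZT22 replicate 2 or replicate 3. Groups did not overlap for 12 members, against 22.2% of all genes.

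Of the 18 members called in young hearts, 11 kept their direction in old H2O hearts and 16 in old NR hearts. For all 2219 genes called in young hearts these shares were 58.3% and 64.6%, against 61.1% and 88.9% for members. Taken in the direction seen in young hearts, the median log2 difference of the 18 was 0.46 in young hearts, where they were chosen, 0.02 in old H2O hearts and 0.13 in old NR hearts, beside 0.44, 0.04 and 0.07 for all genes called in young hearts. Col4a1 differed between times by 0.07 ± 0.10 in old H2O and -0.06 ± 0.10 in old NR hearts, and Lama2 by 0.12 ± 0.07 and 0.06 ± 0.07.

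The age by time interaction, the difference between times in old H2O hearts less that in young hearts, was called for 9 members, 13% of the 69, against 6.89% of all genes (3.13% positive and 3.76% negative). All 9 were among the 18 called in young hearts, which both tests use. Values are given for 8 of them. The interaction was positive for Col5a3 (0.94 ± 0.21, adjusted p = 0.0085), Itga11 (0.89 ± 0.21, adjusted p = 0.0134), Itga5 (0.46 ± 0.12, adjusted p = 0.0255) and Col11a2 (1.02 ± 0.29, adjusted p = 0.0401). It was negative for Col14a1 (-1.10 ± 0.15, adjusted p = 0.000156), Itga8 (-1.49 ± 0.35, adjusted p = 0.0118), Itga3 (-0.67 ± 0.16, adjusted p = 0.0128) and Col4a6 (-1.03 ± 0.25, adjusted p = 0.0138). Col14a1, higher at ZT10 in young hearts, had 419, 383 and 458 normalized counts at ZT10 and 599, 464 and 481 at ZT22 in old H2O hearts. Itga11 had 67.7, 71.0 and 52.3 and 85.7, 85.5 and 90.7 there, so its groups were still apart but closer than in young hearts. Calls were lost without 8 of the 12 hearts in turn for Col11a2, 4 for Itga5 and 1 for Itga3 (old H2O ZT22 replicate 3), while those of Col5a3, Col14a1, Col4a6, Itga8 and Itga11 held without each. The interaction of Col4a1 and Col4a2 was not called (0.43 ± 0.14, adjusted p = 0.0681, and 0.29 ± 0.12, adjusted p = 0.149). The NR by time interaction in old hearts was called for 0 members by edgeR (5 at an unadjusted p under 0.05, and 0 by DESeq2), against 0.343% of all genes (0.233% positive).

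**Figure D3:**
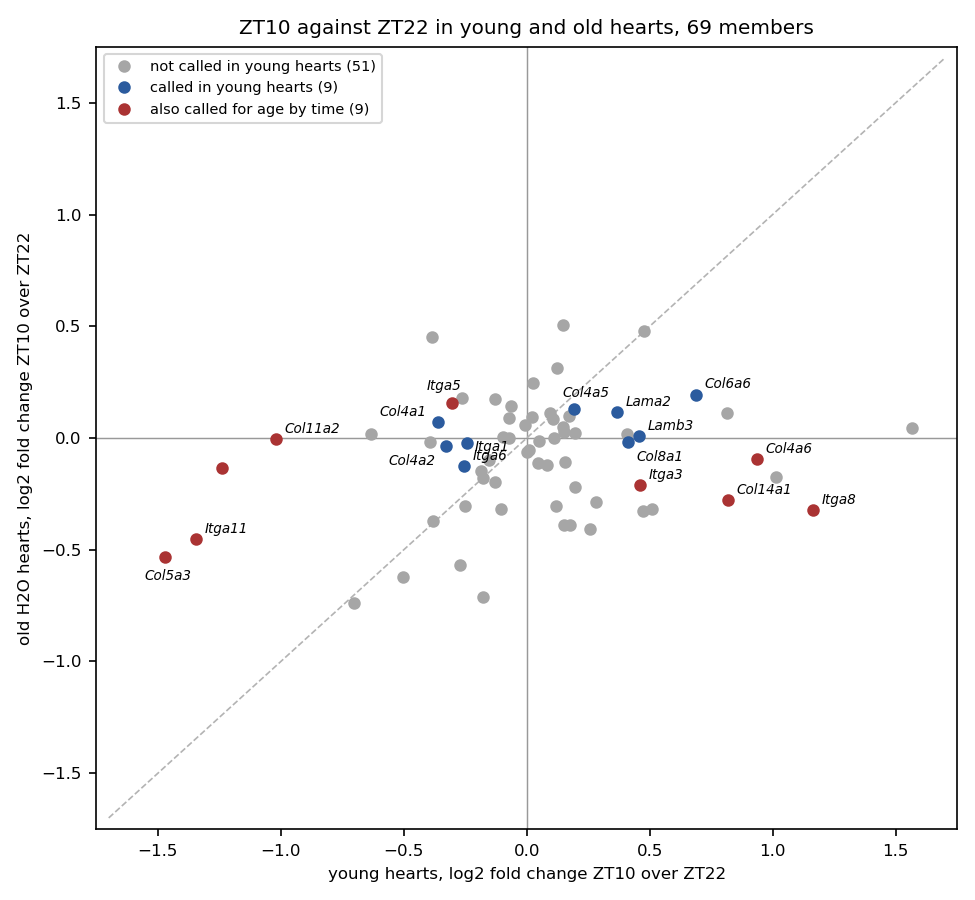
Log2 fold change of ZT10 over ZT22 in young hearts (horizontal axis) against old H2O hearts (vertical axis) for the 69 members tested, with a dashed line of equal change. Points in blue and red are the 18 called in young hearts, and the 9 in red were also called for the age by time interaction.

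Old H2O hearts were set against young hearts at each time to see what differs with age. At ZT10, 8 members were called, 4 higher and 4 lower in old hearts, or 11.6% against 5.87% of all genes (2.95% higher and 2.92% lower). Higher in old hearts were the transmembrane collagen Col23a1, with 71.2, 76.8 and 84.9 normalized counts against 34.5, 39.4 and 37.7 in young hearts (log2 fold change 1.06 ± 0.17, adjusted p = 0.000574), the leukocyte integrin chain Itgb2, with 111, 135 and 110.4 against 64.5, 66.3 and 66.6 (log2 fold change 0.86 ± 0.16, adjusted p = 0.00218), Itga11 at 0.67 (adjusted p = 0.0181) and Lama3 at 0.63 (adjusted p = 0.0392). Lower were Col1a1, with 1101, 916 and 1129 against 1306, 1423 and 1314 (log2 fold change -0.36 ± 0.09, adjusted p = 0.0203), Col5a1 at -0.34 (adjusted p = 0.0371), Itga3 at -0.42 (adjusted p = 0.0301) and Col4a5 at -0.22 (adjusted p = 0.0438). Leukocyte markers moved with Itgb2, with 5 of 6 higher and 2 called and sums from 1961 to 2214 in old and from 1729.8 to 1819 in young hearts, and 5 of 6 smooth muscle and pericyte markers were lower with 4 called. Their part was not tested. Only the calls of Col23a1 and Itgb2 held without each of the 6 hearts, and 2 members were called without old H2O ZT10 replicate 2. A fit of only the 2 groups called 16 members, 6 higher and 10 lower, among them these 8. Groups did not overlap for 23 members, 33.3%, against 27.8% of all genes.

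At ZT22, 20 members were called, 11 higher and 9 lower in old hearts, which is 29% of members where 14.1% of all genes were called (7.96% higher and 6.17% lower), and 29 had groups that did not overlap (28.2% of all genes). Collagens gave 12 of the 20 calls. Col4a1 had 3789, 3400.1 and 3066 normalized counts in old hearts against 5081, 4702 and 4832 in young ones (log2 fold change -0.51 ± 0.10, adjusted p = 0.0017) and Col4a2 3180.2, 2852 and 2773 against 4172, 3912 and 3929.9 (log2 fold change -0.45 ± 0.08, adjusted p = 0.00114). At ZT10 the 2 chains differed with age by -0.08 ± 0.10 and -0.16 ± 0.08 and were not called. Col1a1 was lower in old hearts at this time also, with 1097, 915 and 952 against 1376, 1438 and 1438 (log2 fold change -0.53 ± 0.09, adjusted p = 0.00059), and Col1a2 and Col3a1, not called, differed by -0.14 ± 0.08 and -0.09 ± 0.11. Further calls with lower values were Col11a2 at -1.10 (adjusted p = 0.000686), Col7a1 at -0.87 (adjusted p = 0.0296) and Col5a3 at -0.60 (adjusted p = 0.0046). Collagens with higher values were Col14a1 (log2 fold change 0.92 ± 0.11, adjusted p = 1.06e-05), Col4a6 at 1.06 (adjusted p = 0.000498), Col23a1 at 0.84 (adjusted p = 0.00211), Col8a1 at 0.38 (adjusted p = 0.0127), Col6a6 at 0.57 (adjusted p = 0.0275) and Col27a1 at 0.48 (adjusted p = 0.0341).

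Among integrins at ZT22, Itga5 had 614, 673 and 679 normalized counts in old hearts and 866, 1167 and 968 in young ones, with no overlap (log2 fold change -0.61 ± 0.09, adjusted p = 8.19e-05), and Itga1 differed by -0.21 (adjusted p = 0.038). Itga8 was higher in old hearts, with 102, 250.2 and 189.9 against 91.3, 71.3 and 77.3 (log2 fold change 1.24 ± 0.25, adjusted p = 0.00241), and so was Itga2 at 1.06 (adjusted p = 0.0287). The leukocyte chains Itgal, Itgb7 and Itgb2 were higher by 0.96 (adjusted p = 0.0128), 1.29 (adjusted p = 0.021) and 0.48 (adjusted p = 0.0329), and all 8 chains classed as leukocyte, the platelet chain Itga2b included, had positive values. Leukocyte markers moved with them, with 6 of 6 higher and 3 called, and summed normalized counts from 2066 to 2351 in old and from 1752 to 1914 in young hearts at ZT22. Endothelial markers moved with Col4a1 and Col4a2, with 6 of 6 lower and 3 called, and sums from 7731 to 8857 in old and from 9142 to 9821 in young hearts. The part of either marker list in these results was not tested. Fits with 1 of the 6 hearts missing called 13 to 19 members, the fewest without old H2O ZT22 replicate 2, and 11 of the 20 calls held under every alternative tried.

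Col1a1 was called lower and Col23a1 and Itgb2 were called higher in old hearts at both times. The comparisons at the 2 times share no heart. The collagen processing genes were called for 4 of 28 at ZT10, or 14.3% beside 5.87% of all genes, and 10 of 28 at ZT22, or 35.7% beside 14.1%. Of these 10, 8 were lower in old hearts. They include Serpinh1 at -0.51 (adjusted p = 0.00179), Lox at -0.78 (adjusted p = 0.0281), Loxl1 at -0.30 (adjusted p = 0.0206) and P4ha1 at -0.62 (adjusted p = 1.02e-05).

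NR was compared with H2O in old hearts, at each time with other mice, to see what the precursor changes. Most members were lower with NR at both times, but few differences passed the test. At ZT10 1 member was called, 1.45% of the 69 against 0.285% of all genes, and at ZT22 3 were, 4.35% against 0.35%, all 4 of them lower with NR. Among all genes 0.168% were lower at ZT10 and 0.259% at ZT22, and 0.117% and 0.0907% were higher. At ZT10, Col3a1 had 1265, 1067 and 1289.5 normalized counts with NR and 1926, 1672 and 2070.1 with H2O, 1.57-fold lower (log2 fold change -0.65 ± 0.11, adjusted p = 0.0227). At ZT22, Col14a1 had 283, 319 and 384 with NR and 599, 464 and 481 with H2O (log2 fold change -0.61 ± 0.10, adjusted p = 0.00864). Col1a1 had 730.5, 623 and 838 and 1097, 915 and 952 (log2 fold change -0.43 ± 0.09, adjusted p = 0.0469), and Itga8 67.1, 85.3 and 91.3 and 102, 250.2 and 189.9, with the H2O hearts wide apart (log2 fold change -1.18 ± 0.25, adjusted p = 0.0348).

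These calls were not steady. The call of Col3a1 was lost without any of 5 of the 6 hearts (all but old H2O replicate 2), with log2 fold changes from -0.73 to -0.56 over its alternatives. Without single hearts the count at ZT10 ran from 0 to 2. That at ZT22 ran from 0 to 4, with 0 without old NR replicate 2, where Col14a1 stood at -0.58, adjusted p = 0.0627. Calls of Col1a1 and Itga8 were each lost without 5 of the 6 hearts at ZT22. A fit of only the 2 groups called 7 members at ZT10, all lower with NR, and 0 at ZT22, and DESeq2 called 2 and 6.

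At ZT10, 29 of the 34 collagens tested had lower mean values with NR, and 30 of 34 at ZT22, where 50.8% and 47.5% of all genes did. The median log2 fold change of the collagens was -0.26 at ZT10 and -0.23 at ZT22, beside 0.00 and 0.01 over all genes. Groups did not overlap for 14 collagens at ZT10 (41.2%, against 18.8% of all genes) and for 10 at ZT22 (29.4%, against 14.7%). The 26 collagens that were lower at both times are 76.5% of those tested, where 24% of all genes were. In 8 of them, Col1a1, Col1a2, Col3a1, Col5a2, Col6a3, Col14a1, Col16a1 and Col23a1, the NR and H2O hearts did not overlap at either time. That is 23.5% of the collagens against 0.822% of all genes. Genes are not independent of each other, so these shares describe the hearts and carry no test.

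Col1a2 had 1051, 1003 and 1109.9 normalized counts with NR and 1354, 1188 and 1324 with H2O at ZT10, and 948, 904 and 1102 against 1402, 1224 and 1185 at ZT22. It was not called at either time (log2 fold change -0.29 ± 0.08, adjusted p = 0.168, and -0.36 ± 0.08, adjusted p = 0.0579). Col16a1, a fibril-associated chain, had 97.9, 149 and 127 against 165, 159 and 158 at ZT10 and 115, 106 and 133 against 161, 163 and 158 at ZT22. Of the basement membrane chains, Col4a1 differed by -0.26 ± 0.10 and -0.13 ± 0.10 and Col4a2 by -0.15 ± 0.08 and -0.16 ± 0.08. Summed over the 41 collagens listed, the normalized counts ran from 15685 to 16510.4 with NR and from 17885 to 20278 with H2O at ZT10, and from 14925 to 17454 and from 18505 to 20839.5 at ZT22, so the sums did not overlap at either time.

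Laminins and integrins showed less. Of 10 laminins, 9 had lower values with NR at ZT10 and 6 at ZT22, with medians of -0.09 and -0.07 and 0 calls by edgeR at either time (0 and 2 at an unadjusted p under 0.05). Of 25 integrins, 21 and 18 had lower values, with medians of -0.11 and -0.09, and Itga8 at ZT22 was the 1 called. Both groups overlapped at 1 or both times for every laminin and integrin that was lower at both. Itgb1 differed by -0.19 ± 0.10 at ZT10 and -0.02 ± 0.10 at ZT22, and Itga7 by -0.03 ± 0.07 and 0.01 ± 0.07.

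Markers of other cells moved with NR too. At ZT10 all 5 atrial markers were lower, 3 of them called, with summed normalized counts from 632 to 735 with NR against 2195 to 2856 with H2O. In the fibroblast list 5 of 7 were lower at ZT10 with Dpt called at -0.32 (adjusted p = 0.0286), and 7 of 7 at ZT22 with 0 called (2 at an unadjusted p under 0.05). The fibroblast sums ran from 6837 to 7971 against 8164 to 9324 at ZT10 and from 7540.4 to 8955 against 7716 to 9733 at ZT22. Leukocyte markers were lower in 4 of 6 at ZT10 with 1 called, and in 6 of 6 at ZT22 with 2 called, where the sums were 1602 to 1714 against 2066 to 2351. Smooth muscle and pericyte markers were lower in 6 of 6 at ZT22 with 2 called. The part of these lists in the collagen values was not tested. Of the 30 genes in the list of other matrix ligands, 0 were called at ZT10 by edgeR (3 at an unadjusted p under 0.05) and 2 at ZT22, the fibroblast product Postn at -0.55 (adjusted p = 0.00559) and the fibronectin gene Fn1 at -0.51 (adjusted p = 0.0227).

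**Figure D4:**
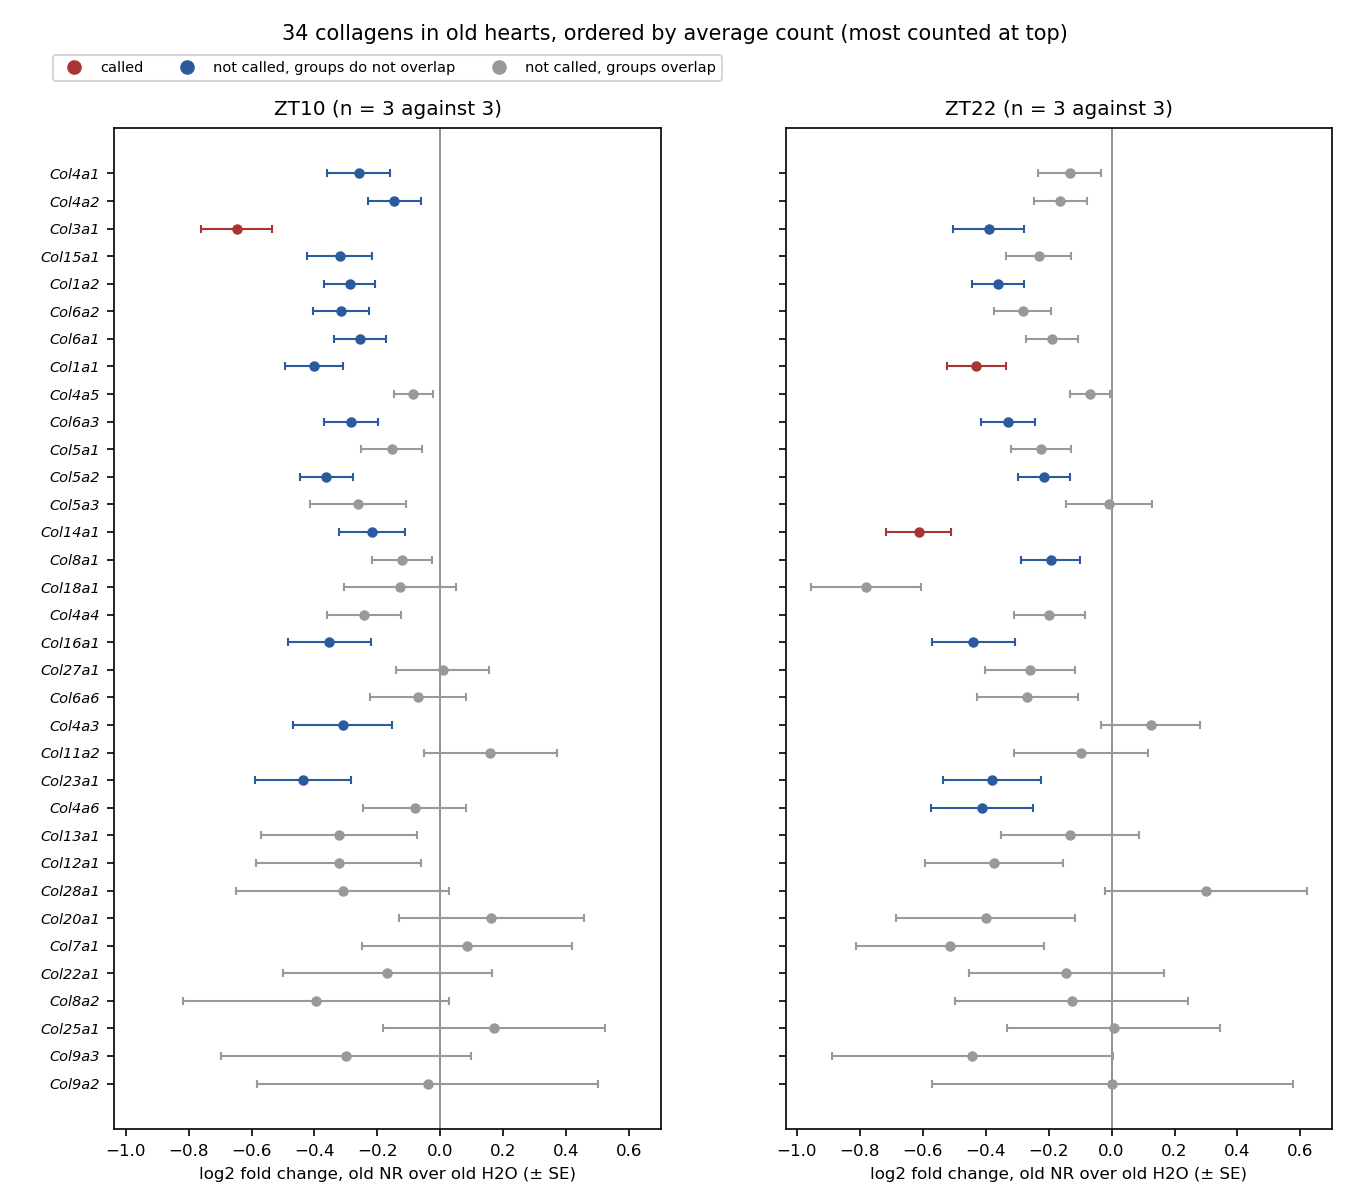
Log2 fold change of old NR over old H2O hearts (horizontal axis, ± SE) for the 34 collagens tested, at ZT10 (left) and ZT22 (right), with the most counted at the top. Points left of 0 are lower with NR, 29 at ZT10 and 30 at ZT22, and the calls in red are Col3a1 at ZT10 and Col1a1 and Col14a1 at ZT22.

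In HL-1 cells, FK866 was set against no treatment to see what a block of NAD+ salvage changes. Here a call needed an adjusted p-value below 0.01 and a change of more than 1.5-fold. With FK866 the fibrillar chains Col1a2 and Col3a1, the beaded filament chains Col6a1 and Col6a2 and Col18a1 were lower, and Itgb7 was higher. Of 50 members tested 13 were called, 5 higher and 8 lower, or 26% against 4.59% of all 14760 genes (2.09% higher and 2.5% lower). The groups did not overlap for 27 members, or 54%, against 36.6% of all genes. Without the fold limit, at an adjusted p-value under 0.05, 23 were called, or 46%, against 24.8% of all genes. All 13 calls held under every alternative tried.

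Col3a1 fell from 84763, 81375 and 76734 normalized counts in untreated libraries to 52604, 49259.6 and 50923 with FK866 (log2 fold change -0.67 ± 0.05, adjusted p = 4.93e-07). Col1a2 fell from 769, 838 and 756 to 281, 282 and 291, 2.77-fold (log2 fold change -1.47 ± 0.12, adjusted p = 9.58e-07). Its partner Col1a1 had 17565, 16015 and 15668 and 12956, 12948 and 12158 and, at -0.37 ± 0.06 (adjusted p = 0.000429), did not reach the fold limit. The type VI chains Col6a1 and Col6a2 fell, at log2 fold changes of -0.74 (adjusted p = 2.19e-06) and -0.99 (adjusted p = 4.03e-07), with Col6a2 at 6068, 6093 and 5740.3 untreated and 2999, 2926 and 3083 with FK866. Col18a1, from which endostatin is cut, fell also, at -1.07 (adjusted p = 3.39e-06), as did Col8a2, at -0.82 (adjusted p = 2.46e-05). Col4a1, Col4a2 and Col5a2, all abundant, were not called, at -0.01 ± 0.09, 0.17 ± 0.09 and -0.02 ± 0.06.

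Among laminins, Lama4 and Lamc3 fell, at -0.74 (adjusted p = 0.000169) and -1.42 (adjusted p = 0.000141), with Lamc3 at 105 ± 3.92 normalized counts untreated and 39.1 ± 8.92 with FK866 (SD, n = 3). Itgb7 was the 1 integrin called and rose from 570.1, 591 and 573 to 1247, 1464 and 1314 (log2 fold change 1.21 ± 0.07, adjusted p = 4.59e-08). Its partner chain Itgae averaged 29.2 raw counts per library and differed by -0.46 (adjusted p = 0.355), and Itga4, the other partner, had 4 raw counts in all. Collagens that rose were Col11a2 at 1.21 (adjusted p = 1.57e-05), Col20a1 at 1.15 (adjusted p = 0.00013) and Col7a1 at 1.14 (adjusted p = 0.000987), all of low level. Of 20 genes tested in the list of other matrix ligands, 5 were called, or 25% beside 4.59% of all genes. The largest in count was Fn1, with 126441, 107557 and 94760.1 untreated and 49495, 44237 and 67204 with FK866 (log2 fold change -1.03 ± 0.14, adjusted p = 8.47e-05). Fbln5 and Tnxb rose, at 1.49 (adjusted p = 1.76e-05) and 0.62 (adjusted p = 0.00436), while Spp1 and Sdc4 fell, at -0.92 (adjusted p = 6.36e-07) and -0.61 (adjusted p = 5.58e-06). Of other cell markers, Kcnj8 (pericyte) was called lower, at -1.91 (adjusted p = 0.000132), and Tnnt2 (cardiomyocyte) higher, at 2.87 (adjusted p = 0.000364). Both averaged few raw counts per library, 43.3 and 12.5. The fibroblast marker Pdgfra fell too, at -0.96 (adjusted p = 3.2e-05), and all 4 tested fibroblast markers had negative values, with sums from 9882 to 10235 against 13155 to 13486 untreated. Their part in the result was not tested.

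NR was added to FK866 to see which of these values it changes. Of 50 members, 13 were called against FK866 alone, 10 higher and 3 lower, or 26% against 4.81% of all genes (2.79% higher and 2.02% lower), and the groups did not overlap for 31 members, or 62%, against 42.8%. This comparison shares the FK866 libraries with the one before, so values are given side by side and their opposite signs carry no weight of their own. With FK866 and NR, Col3a1 had 77118, 79095 and 77938 normalized counts (log2 fold change 0.62 ± 0.05, adjusted p = 1.16e-06) and Col1a2 701, 796 and 724 (log2 fold change 1.38 ± 0.12, adjusted p = 1.99e-06). Col6a1, Col6a2 and Col18a1 were higher by 0.79 (adjusted p = 1.4e-06), 0.89 (adjusted p = 1.2e-06) and 0.94 (adjusted p = 1.38e-05), and Lama4 and Lamc3 by 0.81 (adjusted p = 7.68e-05) and 1.28 (adjusted p = 0.000359). Itgb7 had 483, 509.6 and 480.3 (log2 fold change -1.45 ± 0.07, adjusted p = 8.48e-09). Of 4 tested fibroblast markers 3 had higher values, with Pdgfra called at 1.09 (adjusted p = 1.26e-05), and their sums ran from 11322 to 11647 against 9882 to 10235 with FK866 alone. Of the smooth muscle and pericyte markers, Kcnj8 was called, at 1.38 (adjusted p = 0.00192). Myh11, Acta2 and Tagln, at 0.91, 0.04 and -0.07, were not called. The cardiomyocyte marker Tnnt2, of low count, was called lower, at -2.12 (adjusted p = 0.00198). The part of these markers in the collagen values was not tested.

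Members called with NR that FK866 alone had not moved past the limits were Itgav, a receptor chain for fibronectin and vitronectin, at 0.59 (adjusted p = 0.00117), Itgb8, its partner, at 0.96 (adjusted p = 0.00488), Col11a1 at 0.79 (adjusted p = 0.00896) and Lamb3 at -1.54 (adjusted p = 0.00373). Without FK866 and NR replicate 1, the library with genes of other cells, 11 members were called, 10 of them among the 13 (the members above from Col3a1 to Itgb7 and Lamb3 included), and Itgav, Itgb8 and Col11a1 stood at 0.58, adjusted p = 0.00515, at 0.76, adjusted p = 0.0283 and at 0.72, adjusted p = 0.0355, none of them called. The call of Lamb3 was lost without FK866 replicate 1 or 2 or FK866 and NR replicate 3, and 9 members were called without FK866 replicate 2, the lowest over the 6 libraries. Fn1 rose to 169837, 149250 and 149137 (log2 fold change 1.54 ± 0.14, adjusted p = 2.69e-06). Hspg2 and Spp1 of the same list were called higher as well, at 0.90 (adjusted p = 0.00241) and 0.78 (adjusted p = 3.34e-06), and Fbln5 lower, at -1.59 (adjusted p = 1.33e-05).

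**Figure D5:**
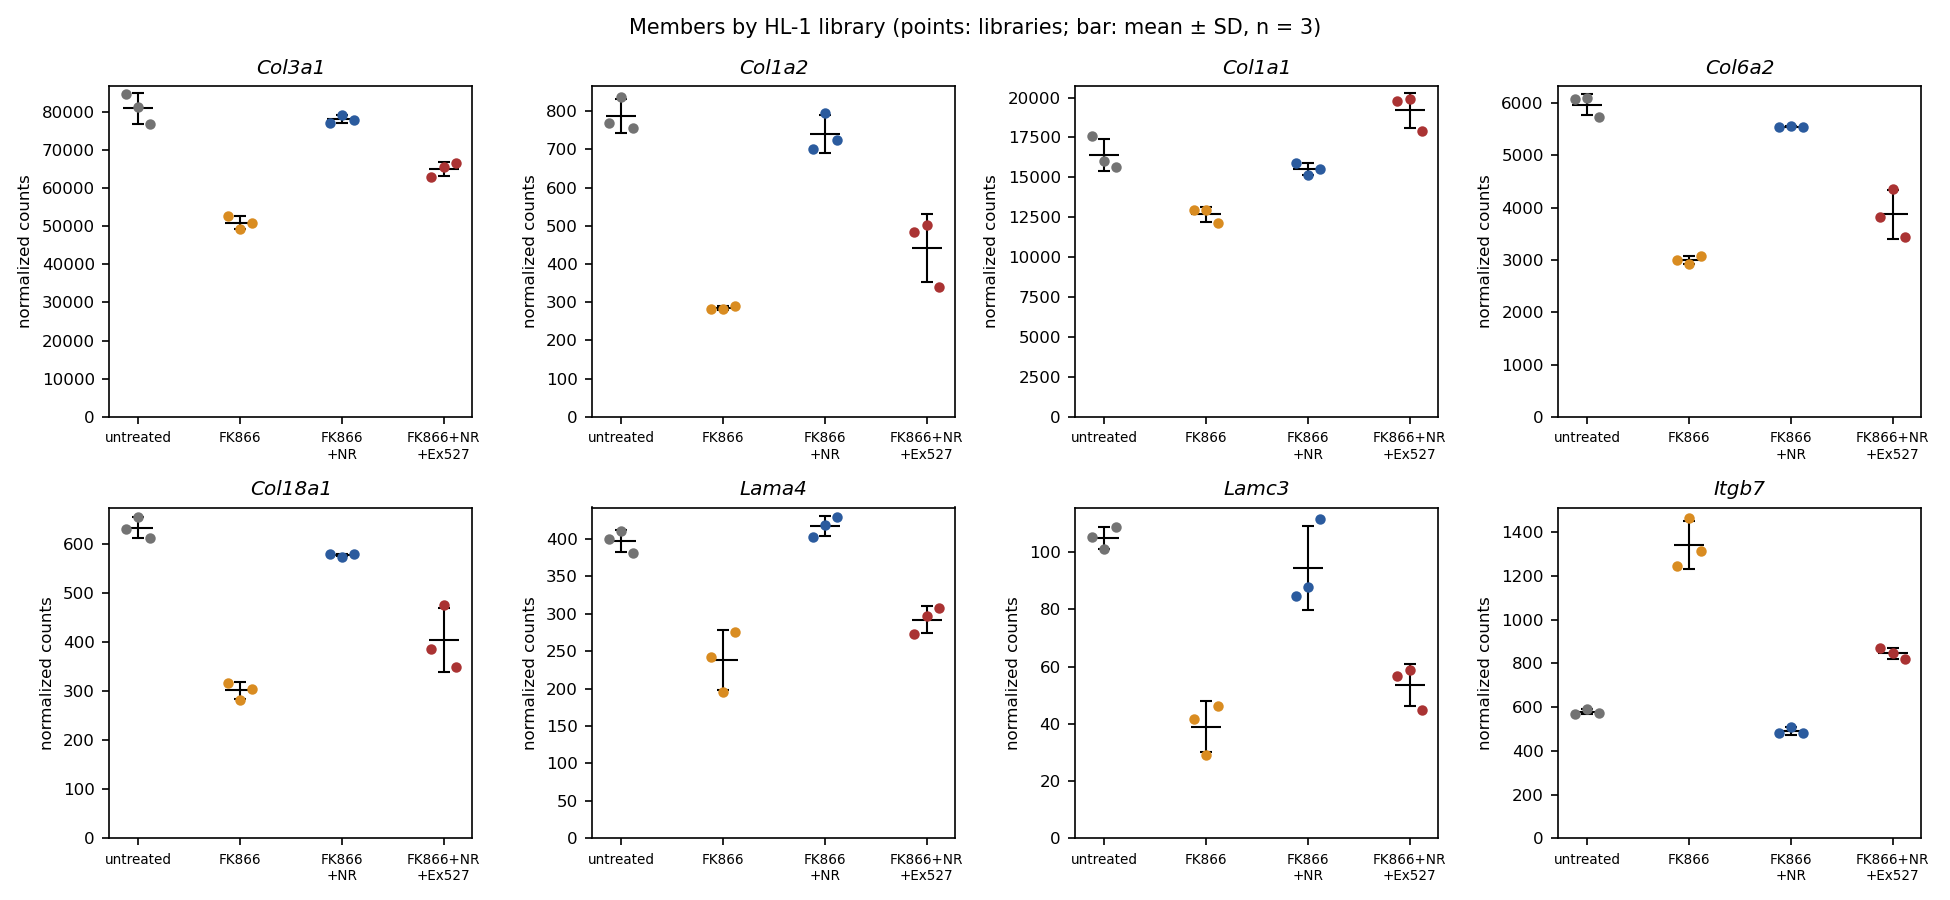
Normalized counts (vertical axes, from 0) of 8 members in the 12 HL-1 libraries, with each library as a point and bars for the mean ± SD (n = 3). The FK866 libraries stand apart from the untreated and the FK866 and NR libraries in all 8, below them except in Itgb7.

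Against untreated cells, FK866 and NR together left 3 members called, 6% against 0.901% of all genes, with no overlap of the groups for 19 members, or 38%, against 45%. All 3 were higher: Col7a1 (log2 fold change 1.01 ± 0.21, adjusted p = 0.00942), Col11a2 at 0.68 (adjusted p = 0.00942) and Col20a1 at 0.78 (adjusted p = 0.00996). All 3 lie close to the limit of 0.01, and 0 were called without 5 of the 6 libraries in turn, replicate 1 of FK866 and NR included. Members that FK866 had lowered differed from untreated by -0.05 ± 0.05 for Col3a1 (95% interval -0.16 to 0.05), -0.09 ± 0.11 for Col1a2 (-0.33 to 0.15) and -0.10 ± 0.07 for Col6a2 (-0.26 to 0.05). Itgb7 differed by -0.24 ± 0.07 (-0.39 to -0.08). A p-value that misses the limit does not show that the values are alike.

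Ex527 was added to FK866 and NR to see what an inhibitor of Sirt1 changes. No group had Ex527 without FK866 and NR, so an effect of the compound by itself and a loss of the NR response cannot be told apart. Against FK866 and NR, 2 members were called, 4% against 0.596% of all genes, and 22 had groups that did not overlap, or 44%, against 33.3%. Itgb7 rose to 871, 846 and 821 normalized counts (log2 fold change 0.79 ± 0.07, adjusted p = 2.57e-05) and Col1a2 fell to 483, 501 and 339.5 (log2 fold change -0.74 ± 0.11, adjusted p = 0.00155), and both calls held under every alternative tried. Without the fold limit, at an adjusted p-value under 0.05, 13 were called, 26% against 7.17% of all genes. Of 24 collagens 20 had lower values with Ex527, with a median of -0.27 beside -0.00 over all genes. Col6a2, at 3825, 4357 and 3430.1, differed by -0.52 ± 0.07 (adjusted p = 0.000745), Col18a1 by -0.51 ± 0.10 (adjusted p = 0.00628) and Lama4 by -0.51 ± 0.10 (adjusted p = 0.00875). All 4 tested fibroblast markers had lower values too, with 0 called by edgeR (3 at an unadjusted p under 0.05), Dcn at -0.53 (adjusted p = 0.000469) and Pdgfra at -0.55 (adjusted p = 0.00832), and sums from 9275 to 9829 with Ex527 against 11322 to 11647 without it. The smooth muscle actin Acta2 was called lower, at -0.62 (adjusted p = 0.00291), and the part of these markers was not tested. Col1a1 went the other way, with 19781, 19909 and 17918 (0.31 ± 0.06, adjusted p = 0.00722).

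Against FK866 alone, the cells with all 3 compounds had 4 members called, 8% against 1.27% of all genes, and 25 had groups that did not overlap, or 50%, against 29.5%. Itgb7 was lower at -0.67 (adjusted p = 4.79e-05). Col1a1 and Col1a2 were higher by 0.60 (adjusted p = 3.75e-05) and 0.63 (adjusted p = 0.00388), calls that were lost without 3 and 4 of the 6 libraries. In Itgb7 and Col1a2 the values with Ex527 lay between those of FK866 and of FK866 and NR, with no overlap.

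A set of 26 abundant or partner chains was followed through every comparison: the main chains of collagens I, III, IV, V, VI, XV and XVIII, of the laminins, and of the integrins that bind them. In hearts all 26 were tested. At ZT10, 1 was called higher and 5 lower in young hearts, beside 6.8% and 7.57% of all genes. In old H2O hearts 0 were called by edgeR, beside 4.2%, and in old NR hearts 2 were lower, beside 3.01%. With age 2 were called lower at ZT10 and 5 lower at ZT22, beside 2.92% and 6.17% of all genes. With NR 1 was called lower at each time, beside 0.168% at ZT10 and 0.259% at ZT22. In HL-1 cells 23 were tested, with 6 lower after FK866 and 7 higher when NR was added, beside 2.5% and 2.79% of all genes. Against untreated cells, FK866 and NR left 0 called by edgeR, beside 0.901%. With Ex527, 1 was lower against FK866 and NR, beside 0.386%, and 2 were higher against FK866, beside 0.413%. Itgb1, Itgb5, Itga7, Itga9, Lamb1, Lamb2, Lamc1 and Col15a1 were called in none of these comparisons. Some of them missed only the fold limit in HL-1 cells. Itgb5 stood at -0.46 after FK866 (adjusted p = 5.6e-05) and Lamb1 at 0.58 when NR was added (adjusted p = 1.93e-05).

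Members below the filter were few in hearts and many in HL-1 cells. In hearts the 9 untested were Col6a5, Col10a1, Col11a1, Col17a1, Col19a1, Col24a1, Col26a1, Itgad and Lama1, with at most 84 raw counts over the 18 hearts. In HL-1 cells 32 were untested, with at most 83 raw counts over the 12 libraries, and Col6a4 had 0. No test was made of these members.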

How the data were processed

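RNA was sequenced from 18 hearts (stranded, single end) and 12 HL-1 cultures (poly(A), paired end). Per the submitters' processing notes and the methods, the authors trimmed heart reads with Trimmomatic 0.39, aligned them with STAR 2.7.10a to mm10, removed duplicates with Picard 3.0.0, left out ribosomal, mitochondrial and multi-mapping reads, and counted per gene with featureCounts 2.0.4. Removing duplicates of single-end reads lowers the counts of abundant genes most. HL-1 reads were aligned with HISAT2, and their counter and strand setting are not given in the sources used here, so antisense reads there cannot be told apart. The deposited heart tables are swapped: the one labelled normalized holds raw counts, and the one labelled raw holds rounded values scaled by the authors with size factors (a score here, used for symbols only). The deposited HL-1 counts were used and the authors' FPKM were not.

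Counts were tested with edgeR 4.0.16 (quasi-likelihood F-test, TMM scaling, Benjamini-Hochberg adjustment over all genes tested, R 4.3.3, limma 3.58.1), with all 18 hearts or all 12 HL-1 libraries in 1 fit. Heart genes needed an average count over 5 and an adjusted p under 0.05. HL-1 genes passed filterByExpr and needed an adjusted p under 0.01 and over 1.5-fold. Intervals are 95% from the fit and all tests are two-sided. Normalized counts are counts divided by the effective library size and multiplied by its mean. Levels per length used the gene lengths deposited with the HL-1 counts, and ranks and ratios of these levels depend on those lengths. Alternatives were DESeq2 1.42.0, its size factors, other filters, only the groups compared, a replicate block and each replicate left out. The fit was tested on simulated counts.

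Named members are every called one where 12 or fewer were called, otherwise those with the largest changes at an average count of at least 20, and a set of abundant chains. A called member that the text does not name is not reported here, though counts include it. The members and lists were chosen with earlier results of these data known.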

Additional observations from a re-analysis of the deposited data

Results flagged for a closer look

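The difference between ZT10 and ZT22 was not the same in young and old H2O hearts for 9 members, of which 8 are given, by the interaction term of the edgeR quasi-likelihood test (Benjamini-Hochberg adjusted over all 15443 genes). Values are log2 differences between times in old H2O hearts less those in young hearts.

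It was positive for Col11a2 at 1.02 (adjusted p = 0.0401), Col5a3 at 0.94 (adjusted p = 0.0085), Itga11 at 0.89 (adjusted p = 0.0134) and Itga5 at 0.46 (adjusted p = 0.0255), all lower at ZT10 in young hearts. It was negative for Itga8 at -1.49 (adjusted p = 0.0118), Col14a1 at -1.10 (adjusted p = 0.000156), Col4a6 at -1.03 (adjusted p = 0.0138) and Itga3 at -0.67 (adjusted p = 0.0128), all higher at ZT10 in young hearts.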

How the results depend on the processing

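Of 1301 recomputed values for the called differences of single members, 1086 kept their direction and call, 215 kept the direction only and 0 changed sign, and 56 of these differences were called under every alternative. For NR in old hearts at ZT10 (1 member called), DESeq2 called 2 and a fit of only the groups compared 7. At ZT22 (3 called), DESeq2 called 6, no filter 5, filterByExpr 5 and only the groups compared 0. For old against young hearts at ZT10 (8 called), only the groups compared gave 16. In HL-1 cells, Ex527 against FK866 and NR (2 called) gave 4 by DESeq2 and 4 with no filter, and FK866 and NR against untreated (3 called) gave 0 at an average count over 5 and 1 with only the groups compared. At an adjusted p under 0.05 with no minimum fold the HL-1 counts were 23 for FK866, 24 for FK866 and NR against FK866, 11 against untreated, 17 for all 3 compounds against FK866 and 13 against FK866 and NR. The cause of these moves was not tested, beyond the looser limit in the last.

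The r between deviations of same-numbered libraries ran from -0.16 to 0.28 over 21 pairs of hearts (9 over 0.1). Over 15 such pairs of HL-1 libraries it ran from -0.59 to 0.23 (4 over 0.1). Replicate 1 at ZT22 gave 0.28 for NR against H2O and 0.23 for old H2O against young hearts. Hearts of that number at ZT22 held 3922137, 4364594 and 4538090 counts, the fewest of their groups. A replicate block gave 2 and 6 members for NR at ZT10 and ZT22, 0 for FK866 and NR against untreated, and counts within 1.5 times elsewhere.

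Leaving out 1 library at a time gave 12 to 18 members for young hearts between times, 0 to 3 for old H2O, 2 to 4 for old NR, 6 to 10 for the age by time and 0 to 2 for the NR by time interaction, 2 to 6 and 13 to 19 for age at ZT10 and ZT22, and 0 to 2 and 0 to 4 for NR at those times. In HL-1 it gave 13 for FK866, 9 to 14 for FK866 and NR against FK866, 0 to 3 against untreated, 2 to 4 for all 3 compounds against FK866 and 2 to 5 against FK866 and NR. Groups hold 3 libraries, and hearts at most 7562215 counts against up to 35000109 in HL-1, and members under the filter were not tested.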
